A study of Mus musculus with 12 samples.

Results

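The RNA of wild-type neural stem cells in growing culture was described from 6 of the 12 libraries of the series, chosen by their labels alone: 3 named E12wt (genotype E12+/+) and 3 named E47wt (genotype E47+/+). E12 and E47 are proteins made from one gene, Tcf3, by alternative splicing. Both groups are labelled as litter mates, E12wt of E12-/- and E47wt of E47-/- animals, all on the C57BL/6J background. Cells from E14.5 embryos were kept proliferating in Neurobasal-A medium with B-27 lacking vitamin A, FGF-2 at 20 ng/ml and EGF at 20 ng/ml, without further treatment. The 3 E12KO (E12-/-) and 3 E47KO (E47-/-) libraries, from cells grown the same way, were used for comparison values and, where stated, in a fit of all 12 libraries. The labels name replicates but neither the brain region nor the embryo, litter or culture behind each, so the spread and the p-values given here describe these libraries and may in part be technical.

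Neural stem cells of the embryonic brain are radial glia that divide next to the ventricle and give rise to neurons first and to glia later. In culture, FGF-2 and EGF act through receptor tyrosine kinases and the ERK cascade and keep such cells dividing, while Notch signalling through Hes factors holds back neuronal differentiation. Cells kept under these conditions are known to carry oligodendrocyte lineage factors alongside the stem cell genes.

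Each wild-type library held between 37142828 and 46976126 reads assigned to genes. Levels are given as CPM, reads per 1000000 gene reads after scaling for composition, and levels of different genes are compared as CPM per kb of exon length. That length joins the exons of all annotated transcripts of a gene. It can exceed the length of the transcripts present, which lowers CPM per kb for genes with many annotated transcripts, and ranks per length carry this limit. At this depth 3 reads, the limit that a count of 0 allows, corresponded to between 0.0639 and 0.0808 CPM, which covers counting error only. Across 12559 genes, which are not independent replicates, correlations between libraries ranged from 0.982 to 0.996 (Pearson, log2 scale). E12wt replicate 3 and E47wt replicate 3 stood apart. They lay at -25.9 and -12.6 on the leading principal component, which held 45.4% of the variance, and the other 4 libraries lay between 2.05 and 16.2.

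The genome divided into a silent part and a detected part of similar breadth in every library. Of 20195 protein-coding genes, 3569 (17.7%) had no read in any of the 6 libraries and 1868 (9.25%) had at most 3 reads in each. A further 3047 had a mean under 1 CPM, 2542 lay between 1 and 10 CPM, 6649 between 10 and 100 CPM and 2520 at 100 CPM or more. That top class held 69.2% of all gene reads. Counting all gene IDs, 12559 had a mean of 1 CPM or more and 12035 reached 1 CPM in each of the 6 libraries. The number at 1 CPM or more per library lay between 12495 and 12569. The single most abundant gene took 0.978% of the reads on average and the top 100 genes took 15.8% ± 0.349 (SD, n = 6).

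Promoters are shown for genes at the ends of this range: stem cell genes at 100 CPM or more, a receptor gene without a read, and the albumin gene Alb, whose spread between libraries was exceeded only by sex-linked genes. For every gene the most upstream start in RefSeq was taken, here and in the counts below, and it need not be the start used most. Each line gives the 120 bases upstream of that start, 5′ to 3′ on the gene's strand, on GRCm38.p6, with CG dinucleotides in capitals.
Fabp7 (chr10:57784803-57784922, plus strand): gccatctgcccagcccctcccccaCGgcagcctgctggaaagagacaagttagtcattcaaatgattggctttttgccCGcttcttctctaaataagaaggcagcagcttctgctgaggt
Ptprz1 (chr6:22875382-22875501, plus strand): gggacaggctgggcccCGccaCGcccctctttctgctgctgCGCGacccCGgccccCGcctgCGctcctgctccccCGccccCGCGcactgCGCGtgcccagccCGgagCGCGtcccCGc
Nes (chr3:87970973-87971092, plus strand): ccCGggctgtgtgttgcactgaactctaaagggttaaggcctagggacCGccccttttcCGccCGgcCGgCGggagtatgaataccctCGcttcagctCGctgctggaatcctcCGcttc
Sox2 (chr3:34649875-34649994, plus strand): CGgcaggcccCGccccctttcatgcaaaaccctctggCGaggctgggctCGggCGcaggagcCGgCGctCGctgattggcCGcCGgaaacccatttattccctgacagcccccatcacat
Alb (chr5:90460750-90460869, plus strand): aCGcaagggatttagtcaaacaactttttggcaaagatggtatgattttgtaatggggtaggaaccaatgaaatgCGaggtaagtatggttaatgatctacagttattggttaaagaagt
Olfr1 (chr11:73399496-73399615, minus strand): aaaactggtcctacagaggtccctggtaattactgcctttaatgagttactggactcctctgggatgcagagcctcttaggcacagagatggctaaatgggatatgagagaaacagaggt

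The stem cell promoters were not alike in CG content. Ptprz1 and Sox2 had 22 and 27 CG dinucleotides in the 250 bases upstream of the start and Nes had 15, whereas Fabp7, the most abundant of these genes per length, had 4. Alb had 2 and the olfactory receptor gene Olfr1 had 0. The median was 19 CG dinucleotides over 2033 coding genes at 100 CPM or more and 17 over 5434 genes at 10 to 100 CPM. It was 1 over 876 olfactory and vomeronasal receptor genes without a read and 6 over all 27025 promoters of the table. The table is not limited to the coding genes of the classes, so comparisons with all its promoters, here and below, mix kind of gene with level.

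An observed-over-expected CG ratio of at least 0.6, over those 250 bases, was found in 82.9% of the promoters at 100 CPM or more, 74.8% at 10 to 100 CPM, 0.799% of the silent receptor promoters and 34.5% of all. The letters TATAAA between 40 and 20 bases before the start, on the gene's strand, were present in 1.13%, 0.607%, 1.14% and 2.21% of these 4 sets in that order. CCAAT on either strand was present in 38.7%, 36.8%, 34.7% and 34.5%, so its share in the classes lay near that of all promoters. For the coding genes of the 4 lower classes, between 74.1% and 77.6% had a promoter in the table. That is under the 80% set for such a check, so it is void for these classes and no value is given for a whole class. The receptor genes without a read are a part of the lowest class that was checked apart from it, with 85.4% in the table. They do not stand for the other silent genes.

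Genes listed for the labelled cell type were detected in every library. The list was chosen with earlier results of these data known, so its counts do not test cell identity. Of all 20195 coding genes, 6649 had a mean of 10 to 100 CPM and 2520 of 100 CPM or more. All 33 genes found of the stem cell and radial glia list had a mean of 10 CPM or more, 18 of them 100 CPM or more, and only Id4 was under 10 CPM in single libraries, at 9.59 CPM in E12wt replicate 3 and 7.67 CPM in E47wt replicate 3. Fabp7, the fatty acid binding protein gene of radial glia, was at 3139, 2681 and 2994 CPM in the E12wt libraries and 3298, 3106 and 2670.2 CPM in the E47wt libraries, and the groups overlapped. Per length it was the fifth most abundant protein-coding gene, at 2385 ± 205 CPM per kb (SD, n = 6).

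Ptprz1, for a receptor tyrosine phosphatase that carries chondroitin sulfate chains, was at 2469, 2719 and 2173 CPM in the E12wt libraries and 2761, 2807 and 2176 CPM in the E47wt libraries. Nes, which encodes the intermediate filament nestin, was at 1504, 1684 and 1156 CPM in the E12wt libraries and 1484, 1585 and 1538 CPM in the E47wt libraries. Sox2, a transcription factor gene of neural progenitors, was at 266, 257 and 230.1 CPM in the E12wt libraries and 256, 237 and 201 CPM in the E47wt libraries. For none of these genes did the groups separate, and the lowest value of Ptprz1 and of Nes was that of E12wt replicate 3. Olig1, for an oligodendrocyte lineage factor, was at 627, 569.5 and 764 CPM in the E12wt libraries and 686, 561 and 807 CPM in the E47wt libraries, highest in the library numbered 3 of each group. Vim, encoding vimentin, was at 1881 ± 129.96 CPM and the glutamate transporter gene Slc1a3 at 1000.1 ± 115 CPM (SD, n = 6).

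**Figure D1:**
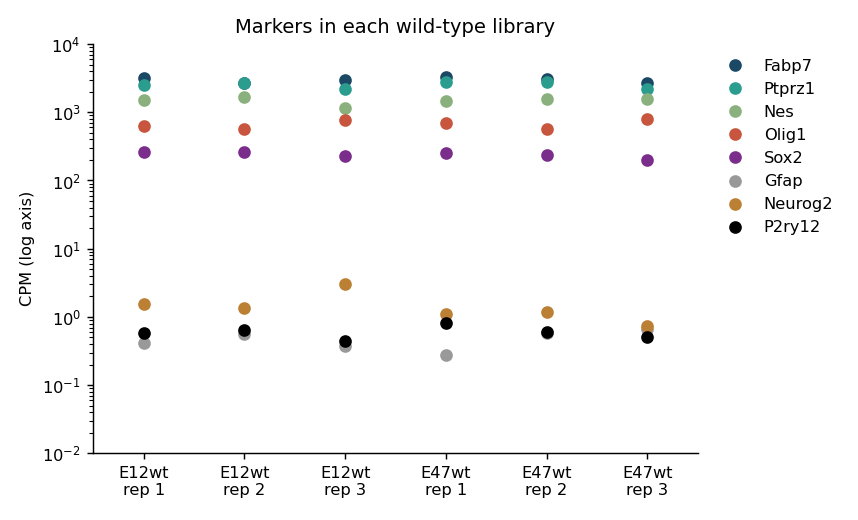
CPM on a log axis in each of the 6 wild-type libraries for 5 stem cell genes and for Gfap, Neurog2 and P2ry12, each point 1 library. The stem cell genes lay at 201 CPM or more in all 6 libraries and the other 3 genes at or below 3.02 CPM. These 3 were picked for the figure and do not stand for other lineages. Of 18 astrocyte genes 16, and of 13 intermediate progenitor genes 9, had a mean of 1 CPM or more, beside 11711 of 20195 coding genes.

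The most abundant transcripts were of several kinds and included Fabp7, Ptprz1 and Scd2, a fatty acid desaturase gene. Eef1a1, for the elongation factor that brings tRNA to the ribosome, had the highest CPM of all genes, 9719 ± 413 (SD, n = 6), and was at 3899 ± 166 CPM per kb. Per length it followed mt-Co1 (5079 ± 622 CPM per kb) and mt-Cytb (4498 ± 634 CPM per kb), which the mitochondrial genome encodes. Of 85 genes taken by name as cytosolic ribosomal protein genes, 76 were at 100 CPM or more, and together the 85 held 4.15% of the gene reads. The set holds some entries with pseudogene names, such as Rpl9-ps6, and lacks Rps3a1. The chaperone genes Hsp90ab1 and Hspa8 were at 3540.1 ± 108 and 3381 ± 104 CPM and Eif4g2, a translation initiation factor gene, at 2687 ± 148 CPM. Tuba1a, a tubulin gene of young neural cells, and Tmsb4x, for an actin-binding peptide, were at 1326 ± 82.5 and 1049 ± 58.3 CPM per kb. The 20 protein-coding genes of highest CPM per kb also held the ribosomal genes Rps3a1, Rps4x, Rplp0 and Rpl4, the ADP/ATP carrier gene Slc25a5, the creatine kinase gene Ckb, Actb, Scd2 and the mitochondrial genes mt-Nd1, mt-Nd2, mt-Nd4 and mt-Nd5.

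Lipid and sugar metabolism genes were nearly all expressed. Scd2, which encodes a desaturase that makes monounsaturated fatty acids, was at 5002, 5420.3 and 4038 CPM in the E12wt libraries and 5446, 5537 and 4027 CPM in the E47wt libraries, lowest in the library numbered 3 of each group. All 16 genes of fatty acid synthesis and oxidation and all 19 of cholesterol synthesis and uptake were at 10 CPM or more. Among the latter Cyp51, for an enzyme of sterol synthesis, was at 652 ± 120.01 CPM. Of 20 glycolysis genes 18 were at 10 CPM or more, with Pkm, for pyruvate kinase, at 1019 ± 30.8 CPM and Gapdh at 983 ± 60.7 CPM. All 17 genes of ER chaperones and stress response were at 1 CPM or more, with the ER chaperone gene Hspa5 at 1699 ± 382 CPM.

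**Figure D2:**
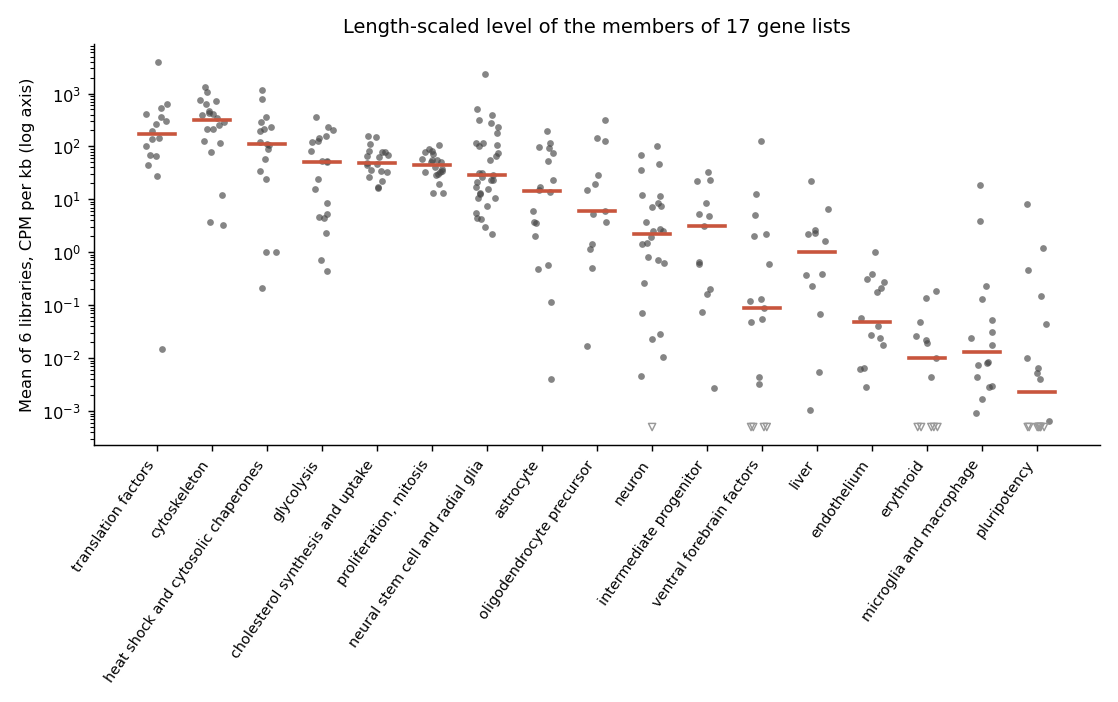
Mean level over the 6 wild-type libraries in CPM per kb of exon length, on a log axis, for the members of 17 gene lists. Each point is 1 gene, open triangles mark genes at or below 0.0005 CPM per kb, and bars are list medians, from 314 for the cytoskeleton list to 0.00231 for the pluripotency list.

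Genes of the dividing cell were present throughout. All 20 S phase genes and all 20 mitosis genes were at 10 CPM or more, with a list median of 20.8 and 45.2 CPM per kb. Top2a, for the topoisomerase of dividing cells, was at 959.6 ± 45.7 CPM, Mki67 at 581 ± 37.1 CPM and Rrm1, for a subunit of ribonucleotide reductase, at 572 ± 19.1 CPM. Cdk4, Ccnd1 and Ccnd2, whose products drive entry into the cycle, were at 762 ± 19.7, 725 ± 106 and 695 ± 59.1 CPM. Among the 6 genes of CDK inhibitors, Cdkn1a was at 283 ± 47.1 CPM, Cdkn1b at 124 ± 11.8 CPM and Cdkn2c at 65.1 ± 2.98 CPM. Cdkn2a, Cdkn1c and Cdkn2b were at 14.8, 7.28 and 5.61 CPM. Of 54 replication-dependent histone genes, whose mRNAs end without a poly(A) tail, 8 reached a mean of 1 CPM in these mRNA libraries.

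Receptor genes for both growth factors of the medium were present. Egfr was at 626 ± 104 CPM, Fgfr1 at 170.2 ± 19.97 CPM and Fgfr3 at 123 ± 17.99 CPM. Ntrk2, for the BDNF receptor, was at 479.8 ± 54.1 CPM. Of 16 genes of growth factor feedback, 15 were at 10 CPM or more, among them the ETS factor gene Etv5 at 463 ± 47.7 CPM and the ERK pathway inhibitor gene Spred1 at 250.4 ± 13.9 CPM.

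Of 19 Notch pathway genes 17 were at 1 CPM or more. Hes5, a main Notch target in neural progenitors, was at 365, 366 and 391 CPM in the E12wt libraries and 407, 358 and 356 CPM in the E47wt libraries, so that its 6 values lay within 1.14-fold of each other. Notch1 was at 219 ± 14.6 CPM, Hey1, a further Notch target, at 170.5 ± 50.2 CPM and Nrarp, for a feedback inhibitor, at 123 ± 21.96 CPM.

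All 7 genes of E proteins and their Id inhibitors had a mean of 10 CPM or more. Tcf3 was at 76.8, 82.5 and 75.6 CPM in the E12wt libraries and 83.8, 76.1 and 96.4 CPM in the E47wt libraries, and counts per gene do not separate its E12 and E47 splice forms. The other E protein genes, Tcf12 and Tcf4, were at 733 ± 47.4 and 528 ± 33.02 CPM (SD, n = 6). Per length, Tcf12 was at 47.2, Tcf3 at 20.3 and Tcf4 at 19.3 CPM per kb. In CPM Tcf3 lay far below Tcf4, so the order of these genes per length depends on the joined exon length. Among the Id genes, whose proteins bind E proteins and keep them from DNA, Id3 was at 73.6, Id1 at 30.8, Id2 at 23.7 and Id4 at 2.96 CPM per kb.

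Of the genes for secreted signals examined, several were near 0. In the Sonic hedgehog list, the receptor gene Ptch1 was at 209.7 ± 17.5 CPM, Smo at 133 ± 6.19 CPM and the co-receptor gene Cdon at 132 ± 25.8 CPM. Shh itself was at 0.171 ± 0.0316 CPM and the target gene Gli1 at 0.122 ± 0.0519 CPM, both chosen after their values were seen. Of 19 Wnt genes, 5 were at 1 CPM or more, with Wnt5a, Wnt7b and Wnt7a at 67.2, 55.9 and 38.2 CPM, and 5 had no read. Of 21 genes of BMP and TGF-beta ligands, 6 were at 1 CPM or more, with Bmp7 at 135 ± 15.1 CPM and Bmp1, for a procollagen protease, at 117 ± 5.66 CPM.

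Factors of the regional code of the brain were detected in part. Of 15 factors of dorsal forebrain 9 were at 1 CPM or more, a share near that of all coding genes (11711 of 20195). Among them Nr2f1 was at 89.8 ± 8.18 CPM, Pax6 at 50.7 ± 4.47 CPM and Emx2 at 31.4 ± 1.84 CPM. Of 17 ventral factors 6 were at 1 CPM or more, with Olig2 at 327 ± 91.9 CPM. The ventral factor genes Gsx2, Nkx2-1, Vax1 and Isl1 had no read in any library. Among midbrain and hindbrain factors, 8 of 22 were at 1 CPM or more, and Pax2, Pax3, Pax5 and Nkx6-1 were among those with no read. None of the 38 Hox genes, which pattern the hindbrain, spinal cord and trunk, reached 1 CPM, and 16 had no read. In the Sox family, per length, Sox2 was at 117, Sox4 at 82.4 and Sox21 at 66.1 CPM per kb, and Sox14 and Sox17 had no read.

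Lineage genes were split within each list, and 11711 of all 20195 coding genes had a mean of 1 CPM or more. Among 18 astrocyte genes 16 were at 1 CPM or more, with Sparcl1 at 582 ± 144 and the glutamine synthetase gene Glul at 307 ± 11.2 CPM. Gfap, the filament gene of mature astrocytes, was at 0.414, 0.564 and 0.369 CPM in the E12wt libraries and 0.272, 0.583 and 0.655 CPM in the E47wt libraries. Among 13 oligodendrocyte precursor genes, 11 were at 1 CPM or more, with Bcan at 577 ± 23.2 CPM and Sox6 at 295 ± 14.1 CPM. Sox10, for a factor of committed oligodendrocyte precursors, was at 3.097, 2.77 and 11.97 CPM in the E12wt libraries and 3.35, 2.72 and 2.16 CPM in the E47wt libraries, high in E12wt replicate 3 alone. Among 12 myelin genes Cnp was at 117 ± 10.3 CPM, and Mbp, for myelin basic protein, was at 1.78 ± 0.496 CPM. Gfap, Sox10 and Mbp were named after their values were seen.

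Among 26 neuron genes 20 were at 1 CPM or more, beside 11711 of all 20195 coding genes. Map2, for a microtubule protein of dendrites, was at 1126 ± 55.3 CPM and Dpysl3, for a growth cone protein, at 308 ± 53.9 CPM, but the glutamate transporter gene Slc17a6 had no read. Of 13 intermediate progenitor genes 9 were at 1 CPM or more, with the Notch ligand gene Dll1 at 93.2 ± 9.72 CPM and the antiproliferative gene Btg2 at 89.96 ± 3.01 CPM. Of 9 AMPA and kainate receptor genes 8 were at 1 CPM or more, with Gria2, Gria3 and Gria4 at 269.9 ± 51.4, 79.5 ± 3.34 and 51.7 ± 2.897 CPM.

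Most genes of large receptor families and of the immune receptors had no read. Of 853 olfactory receptor genes 819 had no read and 1, Olfr287, exceeded 1 CPM, at 5.36 CPM on average. Of 191 vomeronasal receptor genes 181 had no read and only Vmn2r1 exceeded 1 CPM, at 1.28 CPM. Of 57 defensin genes 53 had no read, as had 206 of 209 immunoglobulin and T cell receptor segments. Among 18 pluripotency genes 8 had no read, Pou5f1 among them, and 2 were at 1 CPM or more, Klf4 at 25.3 ± 8.27 CPM and Esrrb at 7.34 ± 1.43 CPM.

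Markers of cell types that could accompany brain tissue were mostly under 1 CPM. No erythroid gene of 13 reached 1 CPM, and the list summed to between 0.461 and 1.05 CPM per library. Of 16 microglia and macrophage genes, 2 were at 1 CPM or more and 1 of these at 10 CPM or more. The list summed to between 39.8 and 45.5 CPM per library. The lower of the 2 was the lysosomal gene Cd68 (4.85 ± 2.44 CPM), and the microglial gene Aif1 had a single read over the 6 libraries. Of 14 endothelial genes 3 were at 1 CPM or more, with the receptor gene Kdr at 3.58 ± 1.09 CPM. Of 17 genes of mesenchyme and meninges 9 were at 1 CPM or more, a share near that of all coding genes (11711 of 20195). Among them Pdgfra, which oligodendrocyte precursors also express, was at 52.98 ± 20.9 CPM. In bulk RNA, few cells with much of a transcript and many cells with little cannot be told apart.

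Levels were reproducible between libraries, more so for abundant genes. For the 12559 genes with a mean of 1 CPM or more, the SD of log2(CPM + 0.5) over the 6 libraries had a median of 0.125. Of these genes 80.1% stayed within 1.5-fold between the lowest and highest library and 95.1% within 2-fold. For these folds 0.5 CPM was added to each value, which makes the folds of genes at low CPM smaller than the plain ratios. The median SD was 0.0876 for genes at 100 CPM or more, 0.112 at 10 to 100 CPM and 0.210 at 1 to 10 CPM. Within E12wt it was 0.104 and within E47wt 0.122. For the same genes it was 0.207 over the 6 knockout libraries, which hold both knockouts, and the difference was not tested. Without both libraries numbered 3 the median SD over the remaining 4 was 0.0878.

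Among genes at 100 CPM or more, Top2b, a topoisomerase gene, had the smallest spread, at 509, 518 and 521 CPM in the E12wt libraries and 523, 519.6 and 519 CPM in the E47wt libraries. Poldip3, Ppp4r2 and Ppp2r5c were among the next, at 125 ± 1.32, 127 ± 1.44 and 181 ± 2.27 CPM (SD, n = 6). Among lists, translation factors and cytosolic chaperones had a median SD of 0.0616 and 0.0645, and mitosis genes 0.0980.

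**Figure D3:**
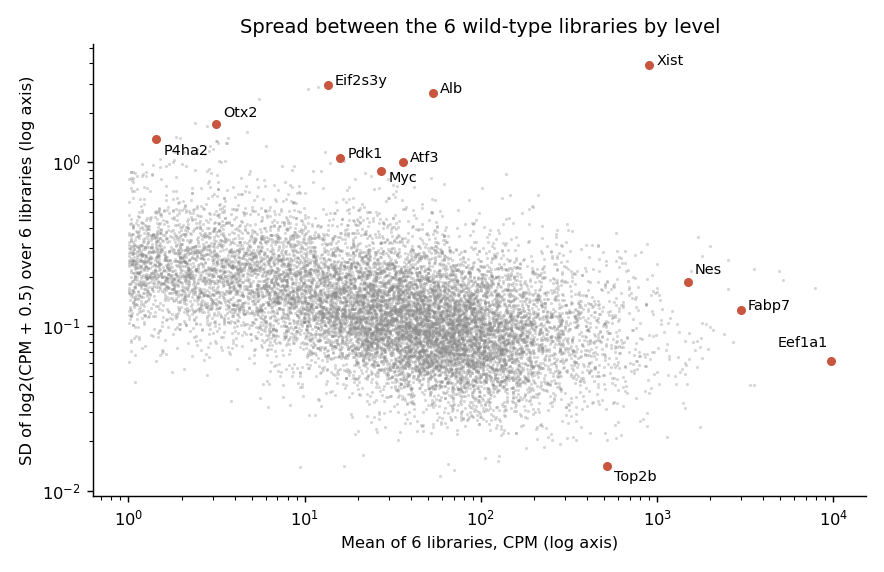
SD of log2(CPM + 0.5) over the 6 wild-type libraries against mean CPM, both on log axes, for genes with a mean of 1 CPM or more, each point 1 gene. Xist, Eif2s3y and Alb are among the genes of largest spread, and Top2b lies near the lower edge.

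Of the 12559 genes, 89 differed by more than 4-fold between the lowest and highest library. E12wt replicate 3 was the lowest library for 47 of these and E47wt replicate 3 for 17. E12wt replicate 3 was more than 2-fold below every other library for 36 of the 89 genes and more than 2-fold above every other library for 8. The 100 genes of largest spread had a median SD of 0.923 here and of 0.669 in the knockout libraries, beside 0.207 there for all genes, and 19 of them were among the 100 of largest spread there too.

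Sex-linked genes led the list of spread. Xist, the RNA that coats the inactive X chromosome, was at 1145, 1256 and 1011 CPM in the E12wt libraries and 886, 0.842 and 1106 CPM in the E47wt libraries. In E47wt replicate 2, where Xist was near 0, the Y-linked genes Eif2s3y, Ddx3y, Kdm5d and Uty were at 80.6, 70.9, 62.6 and 32.7 CPM, and in the other 5 libraries none of them exceeded 0.169 CPM. Reads of Y-linked genes above that level were thus found in 1 of 3 E47wt libraries and in none of the E12wt libraries. The knockouts used for comparison differed in these genes too. Xist was between 1027 and 1508.5 CPM in E12KO and at or below 0.788 CPM in E47KO. Eif2s3y was at or below 0.0996 CPM in E12KO and between 48.4 and 69.1 CPM in E47KO.

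Genes of liver were detected in all 6 libraries, at a far lower level in E12wt replicate 3. Alb, the gene of serum albumin, was at 42.7, 35.8 and 0.254 CPM in the E12wt libraries and 66.6, 83.7 and 89.9 CPM in the E47wt libraries. The 12 liver genes found summed to 57.3, 52.7 and 0.992 CPM over the E12wt libraries and to 93.7, 124 and 132 CPM over the E47wt libraries, so the groups did not overlap and E12wt replicate 3 was lowest. In the knockout libraries the same sum was 48.5, 48.1 and 46.3 CPM in E12KO and 131, 123 and 138 CPM in E47KO. Of the 12 genes 8 had a mean of 1 CPM or more.

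Cyp2e1, for a liver cytochrome, was at 2.66, 3.29 and 0.0231 CPM against 4.98, 8.31 and 8.896 CPM in E12wt and E47wt. Apob, for the protein of low density lipoproteins, was at 2.12, 2.48 and 0.0231 CPM against 4.17, 4.45 and 6.06 CPM. Both were at the level of 1 read in E12wt replicate 3. Afp, which fetal liver expresses at high level, had 1 read over the 6 libraries, and the erythroid list stayed at or below 1.05 CPM. Serpina3k, Ahsg, Mup3, Ttr and Pzp, further genes of liver among the 16 of largest spread, were also lowest in E12wt replicate 3, where none exceeded 0.0231 CPM. Afp and Apob were named after their values were seen.

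**Figure D4:**
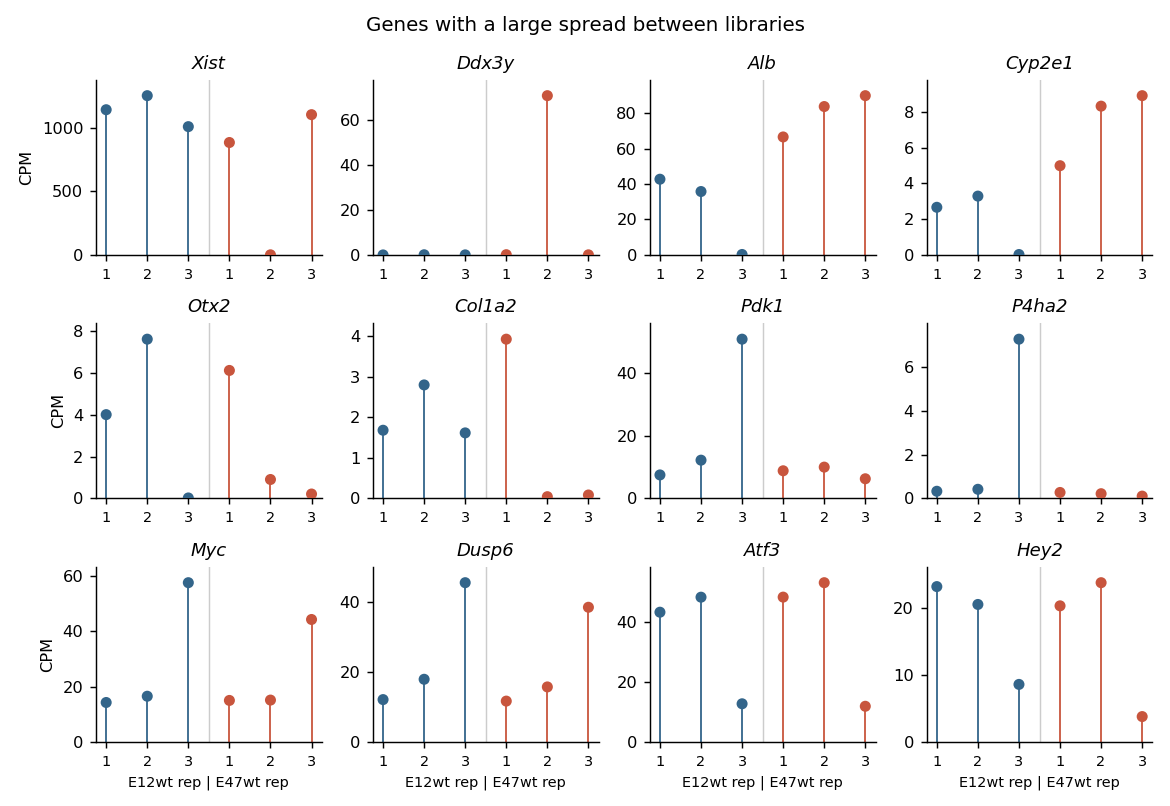
CPM in each wild-type library for 12 genes with a large spread, E12wt replicates 1 to 3 at left in blue and E47wt replicates 1 to 3 at right in red, each panel with its own linear axis from 0. Alb and Cyp2e1 are near 0 in E12wt replicate 3, Pdk1 and P4ha2 are high only there, and Myc and Dusp6 are high in the library numbered 3 of each group.

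Another set of genes was high in E12wt replicate 3 alone. P4ha2, for a collagen prolyl hydroxylase, was at 0.327, 0.417 and 7.26 CPM against 0.272, 0.216 and 0.106 CPM in E12wt and E47wt. Pdk1, for a kinase that shuts pyruvate out of mitochondrial oxidation, was at 7.502, 12.2 and 50.8 CPM against 8.82, 9.99 and 6.28 CPM. Bnip3, for a mitophagy receptor, was at 14.2, 16.1 and 61.1 CPM against 13.3, 13.5 and 12.9 CPM. In the knockout libraries the highest values were 13.1, 0.772 and 20.96 CPM for Pdk1, P4ha2 and Bnip3 in that order. Pdk1 and Bnip3 were chosen after their values were seen, as were Dusp6, Egr1, Myc, Atf3, Hey2 and Txnip.

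A further set was shifted in E12wt replicate 3 and E47wt replicate 3 alike. Dusp6, for a phosphatase that turns off ERK and is itself induced by it, was at 12.1, 17.97 and 45.7 CPM against 11.7, 15.8 and 38.6 CPM in E12wt and E47wt. Egr1, an immediate early factor gene, was at 77.7, 87.7 and 282 CPM against 75.3, 83.9 and 224 CPM, and Myc, for a transcription factor of cell growth, at 14.3, 16.5 and 57.6 CPM against 15.01, 15.1 and 44.3 CPM. In the opposite direction, the stress factor gene Atf3 was at 43.1, 48.1 and 12.7 CPM against 48.1, 52.9 and 11.9 CPM. Hey2, a Notch target gene, was at 23.2, 20.5 and 8.58 CPM against 20.3, 23.7 and 3.78 CPM, and Txnip, for a protein that binds thioredoxin, at 20.5, 13.2 and 4.13 CPM against 21.7, 15.8 and 2.94 CPM. For each of these genes the library numbered 3 lay outside the range of the other 4 in both groups. E47KO replicate 3 had Myc at 49.3 and Atf3 at 12.3 CPM, and E12KO replicate 3 had them at 19.4 and 61.9 CPM. The labels give no date, passage or time since feeding for any library, and the part of such factors was not tested.

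Some genes of large spread were low in the libraries numbered 3 but varied among the other 4 as well. Otx2, for a factor of forebrain and midbrain, was at 4.01, 7.63 and 0.0231 CPM against 6.13, 0.907 and 0.211 CPM in E12wt and E47wt, and Six3os1, a noncoding RNA gene, at 1.22, 7.75 and 0 CPM against 6.75, 0.777 and 0.275 CPM. Both had their lowest values in E12wt replicate 3 and E47wt replicate 3. Crabp2, for a retinoic acid binding protein, was between 0.319 and 0.654 CPM in 5 libraries and at 9.53 CPM in E47wt replicate 3.

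E47wt against E12wt served as a measure of the background between wild types. It gave 0 of 14892 genes tested at a Benjamini-Hochberg adjusted p under 0.05 (0.0%, edgeR quasi-likelihood test), with a smallest adjusted p of 0.262, and DESeq2 called 8 genes. With no adjustment, 568 genes (3.81%) had a p under 0.05, 305 higher in E47wt and 263 higher in E12wt. The values of the groups did not overlap for 1398 genes (9.39%). The median absolute log2 difference was 0.0827, beside a median SE of 0.122, and 229 genes differed by more than 1 on that scale without being called by edgeR. Line, litter and handling cannot be told apart as sources of such differences. The fit also had no term for the Xist and Y-linked reads that set E47wt replicate 2 apart.

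The smallest p belonged to Gm15663, a noncoding transcript gene on chromosome 10, at 14.8, 13.6 and 11.1 CPM in the E12wt libraries and 5.64, 5.31 and 5.56 CPM in the E47wt libraries. Its log2 difference was -1.26 ± 0.13 (SE, edgeR quasi-likelihood, adjusted p = 0.262), and it was higher in all 3 E12wt libraries. In the knockout libraries it was between 12.8 and 14.2 CPM in E12KO and between 5.704 and 6.34 CPM in E47KO. DESeq2 called it with an adjusted p of 6.32e-12, and it was the single gene called when all 12 libraries entered one edgeR fit (adjusted p = 0.0103). Lynx1, for a membrane protein that binds nicotinic receptors, was at 15.1, 13.9 and 12.2 CPM in the E12wt libraries and 23.1, 18.9 and 22.8 CPM in the E47wt libraries, 0.65 ± 0.12 on the log2 scale, and DESeq2 called it (adjusted p = 0.00826). Hao1, a liver oxidase gene at 0.216 CPM on average, differed by 2.18 ± 0.40 and the unnamed gene ENSMUSG00000082209 by -0.38 ± 0.07 on the log2 scale (SE). For Lynx1, Hao1 and ENSMUSG00000082209 the edgeR adjusted p was 0.99999. DESeq2 called ENSMUSG00000082209 (adjusted p = 0.02145). It also called Apoh, a liver gene outside the liver list, at 2.02 ± 0.47 (SE) on the log2 scale (adjusted p = 0.0340).

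Of the liver list, 10 of 12 genes could be tested and all 10 were higher in E47wt, with a median log2 difference of 1.77 beside -0.00 for all genes tested. None was called by edgeR and 5 of 10 had an unadjusted p under 0.05, beside 3.81% of all genes. Leaving out E47wt replicate 2 gave 0 such genes, leaving out E47wt replicate 3 gave 1 and leaving out E12wt replicate 3 gave 9, with medians of 1.72, 1.62 and 1.21. The share of all genes in these settings was 3.66%, 5.37% and 3.11%. Alb differed by 1.61 ± 0.98 (SE) on the log2 scale. Of cytochrome P450 genes, many of which liver expresses, 39 of 90 were tested, with a median of 0.88. Of these, 7 had an unadjusted p under 0.05, beside 3.81% of all genes. Leaving out E12wt replicate 1 gave 16 of 41 (2.58% of all genes). Leaving out E12wt replicate 3 gave 11 of 44 (3.11%) with a median of 0.43. Leaving out E47wt replicate 3 gave 4 of 40 (5.37%). Among the 14 with a mean of 1 CPM or more the count was 0 and the median 0.00, beside 3.185% of all genes with such a mean.

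Mitochondrial transcripts lay on the other side of 0. Of 18 mitochondrially encoded genes tested, 15 were lower in E47wt, with a median log2 difference of -0.31, where 48.5% of all genes tested were higher in E47wt. None was called by edgeR and 7 had an unadjusted p under 0.05, beside 3.81% of all genes. Without E12wt replicate 3 that number was 11 and without E47wt replicate 2 it was 4, beside 3.11% and 3.66% of all genes, and without E12wt replicate 1 the median was -0.18. mt-Co1, for a subunit of cytochrome oxidase, averaged 8611 ± 739 CPM over E12wt and 7083 ± 124 CPM over E47wt (SD, n = 3 each), -0.28 ± 0.07 (SE) on the log2 scale. mt-Cytb, for the cytochrome of complex III, was at 5644 ± 749.97 and 4648 ± 95.3 CPM.

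mt-Co2 was at 11.5, 11.5 and 11.04 CPM in the E12wt libraries and 6.07, 6.605 and 6.76 CPM in the E47wt libraries, -0.80 ± 0.10 (SE) on the log2 scale (edgeR quasi-likelihood, adjusted p = 0.49951). DESeq2 called it, with an adjusted p of 6.29e-07. Its mean of 8.905 CPM lay far below that of mt-Co1, 7847 CPM, as did those of mt-Co3 and mt-Atp6 at 8.68 and 8.19 CPM. Reads that map to several places are left out of these counts, so the levels of genes with near-identical copies elsewhere are uncertain.

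Nuclear genes of oxidative phosphorylation were higher in E47wt in 77 of 79 tested, with a median log2 difference of 0.11 and none called by edgeR, where 48.5% of all genes were higher. An unadjusted p under 0.05 was found for 11, beside 3.81% of all genes. Such genes numbered 0 when E12wt replicate 1, E12wt replicate 3 or E47wt replicate 1 was left out, beside 2.58%, 3.11% and 2.95% of all genes. They numbered 26 when E47wt replicate 3 was left out, a setting in which the share of all genes was 5.37%. Ndufs8, for a subunit of complex I and named after its value was seen, averaged 50.9 ± 3.19 CPM over E12wt and 58.9 ± 1.85 CPM over E47wt (SD, n = 3 each). Of 81 cytosolic ribosomal protein genes tested 76 were on the higher side in E47wt, with a median of 0.08, and 2 had an unadjusted p under 0.05, beside the same 48.5% and 3.81% of all genes. Those on the lower side were Rpl10, Rps4x and the pseudogene-named entries Rpl9-ps6, Rps12-ps3 and Rpl36a-ps1. Genes of 1 complex vary together within a library, so such counts of direction are not counts of independent observations.

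**Figure D5:**
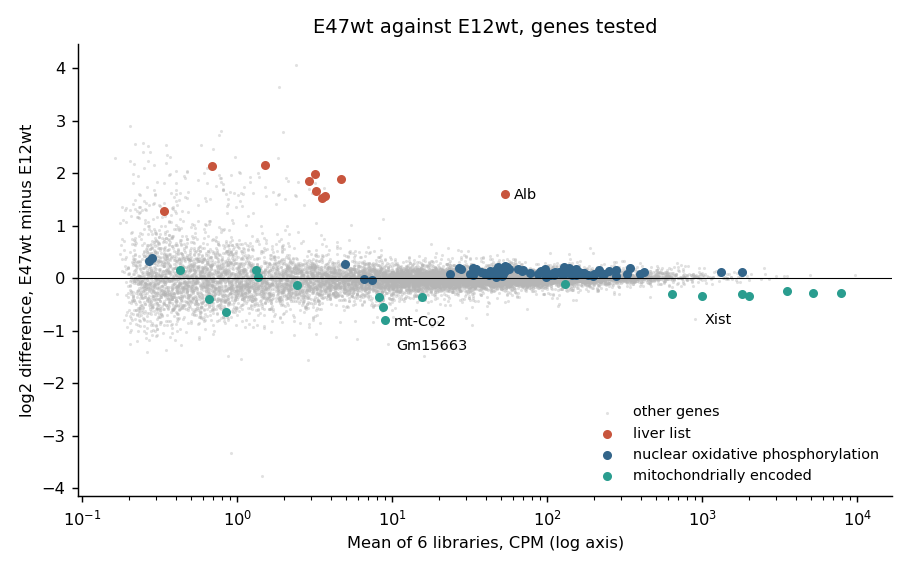
Log2 difference E47wt minus E12wt against mean CPM on a log axis for the genes tested, each point 1 gene. Liver genes lie between 1.28 (Hnf4a) and 2.15 (Fgb), mitochondrially encoded genes mostly below 0 and nuclear oxidative phosphorylation genes just above 0, and none of these was called by edgeR.

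Genes of the stem cell list and of other lists were tested in the same fit. In the stem cell list all 33 were tested, none had an unadjusted p under 0.05 and the median log2 difference was 0.02. Fabp7 differed by 0.04 ± 0.10, Ptprz1 by 0.07 ± 0.12, Nes by 0.09 ± 0.13, Sox2 by -0.12 ± 0.10 and Olig1 by 0.07 ± 0.15 (SE) on the log2 scale. Neuron, oligodendrocyte precursor, Sox, Notch, S phase and mitosis genes had no member at an unadjusted p under 0.05. Of the 12 intermediate progenitor genes tested 4 had one, and of the 13 dorsal forebrain factors 4, beside 3.81% of all genes. These counts were 1 and 1 without E12wt replicate 3 (3.11% of all genes), 1 and 2 without E47wt replicate 3 (5.37%), and 0 and 2 without both (5.54%). Without E47wt replicate 1 or E47wt replicate 2 they were 2 and 2 (2.95% and 3.66% of all genes). Without E12wt replicate 1 or E12wt replicate 2 they were 3 and 4 (2.58% and 5.865%). With the replicate number as a term in the fit they were 4 and 5 (7.45%). None of these genes was called by edgeR.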

How the data were processed

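Libraries were prepared from mRNA with a kit that keeps the strand (12 in all), according to the labels' protocols. For each one the authors deposited read counts, as whole numbers per gene and strand; their processing notes name STAR 2.5, DESeq, DESeq2 and build mm9, and no annotation release is named there. Opposite-strand counts, 97.1 to 97.2% of strand-assigned reads in the wild types, were used as deposited; unmapped, multimapping (4.77 to 5.16%), unassigned and ambiguous reads stayed out of library sizes. The 2 deposited comparison tables were not used here.

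CPM used TMM factors over the 6 wild-type libraries. Names and exon lengths came from GENCODE mouse release M21 on another build (32897 of 37620 IDs matched), promoters from RefSeq, GRCm38.p6 (15857 of 20195 coding genes), and no coordinate was joined to the counts. E47wt was set against E12wt with edgeR 4.0.16 (quasi-likelihood, filterByExpr, Benjamini-Hochberg over 14892 genes, threshold 0.05, two-sided), tested on simulated data; DESeq2 1.42.0 was an alternative. R 4.3.3 and Python served. Levels, spread and promoters are descriptions with no test. The members and lists were chosen with earlier results of these data known. Genes named are the leading members of each list, the most abundant, most and least variable genes and the 5 of smallest p. Replicates differed by more than counting noise (chi-square per degree of freedom 12.0 to 39.2). A few genes chosen in this way were left out of the text.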

Additional observations from a re-analysis of the deposited data

Results flagged for a closer look

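Taking the 6 wild-type libraries as 1 set, the summed CPM of each of 73 lists was examined on the log2(sum + 0.5) scale for a library far from the others, by the gap to its nearest neighbour over the whole range, against Dixon's critical value for 6 libraries. Chance flags about 1 in 20 such sets, lists share genes, and 7 of the 73 passed. The sum of the liver list was lowest in E12wt replicate 3, at 0.992 CPM against 52.7 to 132 CPM elsewhere (ratio 0.797). Wnt ligands were lowest in the same library, at 131.0 CPM against 164 to 182 CPM (ratio 0.680), as were olfactory receptors, at 3.07 CPM against 6.17 to 9.11 CPM (ratio 0.632). Most of the mean olfactory sum came from Olfr287, and 819 of the 853 genes had no read, so that flag does not describe the family. Dorsal forebrain factors were lowest in E47wt replicate 3, at 244 CPM against 273 to 289 CPM (ratio 0.676). Sex-linked genes were lowest in E47wt replicate 2, at 1684 CPM against 2571 to 3063 CPM (ratio 0.707), and long noncoding RNAs too, at 719 CPM against 1446 to 2056 CPM (ratio 0.665); Xist is on both lists. Cytochrome P450 genes were highest in E47wt replicate 2, at 250.3 CPM against 219.9 to 230.5 CPM (ratio 0.636).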

How the results depend on the processing

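For E47wt against E12wt, the count of called genes was 0 with upper quartile or RLE scaling, without the filter, with a mean of at least 1 CPM, with both-strand counts, with the replicate block and without any 1 library; it was 1 with all 12 libraries in one fit and 8 with DESeq2. The count at an unadjusted p under 0.05, 568, was 859 without the filter (22555 genes), 1109 with the replicate block and 890 without E12wt replicate 2, and it ranged from 389 to 890 when 1 library was left out; the cause was not tested beyond the larger number of genes without the filter. With the replicate block, replicate numbers enter as a term: same-numbered libraries deviated together with correlations of 0.0671, 0.276 and 0.302, replicates 2 and 3 correlated best with their own number but E12wt replicate 1 with E47wt replicate 2 (0.130), and the numbers were not taken as pairs. Genes at 1 CPM or more, 12530 per library on average, were 12662 with both-strand counts, and the median SD, 0.125, was 0.0878 without both libraries numbered 3, a setting chosen after seeing the data. Depth limits silent genes to 0.0639 to 0.0808 CPM per library. Reads that map to several places are left out of every count.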
